A study of Mus musculus with 26 samples.

Results

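Cytosolic ribosomal protein genes were taken as the genes whose symbol starts with Rpl or Rps followed by a digit, together with Rplp0, Rplp1, Rplp2 and Rpsa, without the S6 kinase genes and without pseudogenes named as such. The rule found 86 of the 30406 genes common to both gene lists, 52 with a large subunit symbol and 34 with a small subunit symbol. Of these, 77 encode the ribosomal proteins proper, 46 of the large and 31 of the small subunit, and the other 9 are paralogs or genes that only share the symbol. The 86 genes carried the same identifiers in both lists and lay on 19 chromosomes, with at most 14 on any one.

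Microglia, the resident macrophages of the brain, were sorted as Cd11b+ Cx3cr1+ Cd45 low cells from the prospective somatosensory (S1) cortex of wild-type C57Bl/6N mice. At E12.5 the pregnant dams were given either saline or poly(I:C). The latter is an artificial RNA that immune sensors read as viral, and its injection serves as a model of maternal immune activation (MIA). Embryonic microglia were profiled at E13.5 and E15.5 in 3 saline and 3 MIA libraries per age, made from pooled embryos of both sexes. Juvenile microglia were profiled at P14 in 4 saline libraries, of which a female and a male library bear the same replicate number, 3, and in 2 MIA libraries. Nuclei were sorted from frozen E15.5 prospective S1 cortex of male embryos, wild type or Csf1r-/-, after saline or MIA, with 2 libraries per group. Csf1r-/- is a null allele in every cell of the animal, and Csf1r encodes the receptor that microglia need to survive. RNA was captured in droplets near its 3′ end and each molecule was counted once by its unique molecular identifier (UMI). Levels were therefore not divided by gene length. They are given in CPM, the usual scaling of UMIs to the total of each library. Log2 fold changes come from edgeR models, which scale the libraries further by TMM factors, and can differ from ratios of the CPM.

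The cytosolic ribosome is built from a large subunit, which forms peptide bonds, and a small subunit, which reads the mRNA, and its proteins are needed in equal amounts apart from the stalk proteins Rplp1 and Rplp2, of which it holds more. The mRNAs of nearly all of these proteins start with a run of pyrimidines, the TOP motif, through which mTOR and the RNA-binding protein Larp1 adjust their translation and stability together. Cells that grow and divide hold many ribosomes and much ribosomal protein mRNA, and a number of the proteins, among them Rpl5 and Rpl11, also bind Mdm2 and thereby act on p53.

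The starts of 6 of these genes, each named in the results, are shown, and a link of sequence to level or change was not tested. Rps2 and Rps19 had the largest fold decreases between E15.5 and P14 among the proteins proper, Rps27 and Rps21 were among those with the smallest, Rpl41 was among the highest in embryonic microglia, and Rps6 is the small subunit protein that the S6 kinases phosphorylate. Each run holds the 50 bases before and the first 10 bases after the annotated start, on the strand of the gene, from RefSeq in GRCm38.p6. Capitals mark the letters CGGAAG, a form of the site read by ETS factors, and other forms of it are not marked.
Rps2, chr17:24720013-24720072, plus strand: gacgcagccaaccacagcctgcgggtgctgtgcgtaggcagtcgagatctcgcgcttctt
Rps19, chr7:24884542-24884601, plus strand: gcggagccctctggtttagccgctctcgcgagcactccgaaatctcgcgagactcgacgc
Rps27, chr3:90213639-90213698, minus strand: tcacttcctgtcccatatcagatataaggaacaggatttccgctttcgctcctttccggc
Rps21, chr2:180257329-180257388, plus strand: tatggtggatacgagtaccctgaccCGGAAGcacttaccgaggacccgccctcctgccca
Rpl41, chr10:128549159-128549218, minus strand: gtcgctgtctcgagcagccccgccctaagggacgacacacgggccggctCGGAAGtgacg
Rps6, chr4:86857358-86857417, minus strand: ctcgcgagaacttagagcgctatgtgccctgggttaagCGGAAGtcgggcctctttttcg
Promoters were matched for 66 of the 86 genes. CGGAAG or its reverse complement lay between 60 bases before and 20 bases after the start in 23 of them (34.8%), against 1919 of 17492 protein-coding genes. A run of 8 or more C or T letters between 10 before and 20 after the start was found in 21 of 66 against 1928 of 17492, and a start at C followed by 4 letters that are each C or T in 19.7% against 2.17%. TATAA between 40 and 11 bases before the start was found in 7.58% against 4.85%. These motifs were chosen after some of the promoters had been read, the searches for CGGAAG and for pyrimidine runs cover windows that overlap, and a match is only a match of letters. The starts are annotated ones and were not mapped here, so a missing match does not show that an mRNA lacks the TOP motif.

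The microglia libraries held between 273 and 5607 cells and between 6045059 and 96287515 UMIs, and the nuclei libraries between 4386 and 5891 nuclei and between 9271457 and 16478948 UMIs. Cells of the sorted libraries were kept when at least 3 of 10 microglial markers were found and outweighed the neuronal markers, which kept between 77.9% and 99.4% of the cells that passed the other filters. Microglial markers summed to between 20945 and 23101 CPM at E13.5, between 30046 and 41282 CPM at E15.5 and between 54156 and 63808 CPM at P14, and none of the 10 was at 0 in any group. In the nuclei the UMIs of Csf1r, the deleted gene, did not match the labels of 2 libraries. There were 0 in the library labelled wild-type MIA 2 and 10 in the library labelled Csf1r-/- saline 2, where the other wild-type libraries held 11, 22 and 23 and the other Csf1r-/- libraries 1, 2 and 4. Microglia-like nuclei went the same way, with 0 in the former and 7 in the latter, against 6 to 9 in the other wild-type and 0 in the other Csf1r-/- libraries, and microglial markers summed to 4.30 and 20.8 CPM. The paper describes genotyping of each embryo from a tail sample, and reports from immunohistochemistry that Csf1r-null mice lacked microglia. The labels were kept. If these libraries were exchanged, the wild-type MIA and the Csf1r-/- saline values would each hold a library of the other group. Some sorted libraries shared cell barcodes far more often than others did: 16 of 153 pairs shared at least 50, and the rest at most 37. E13.5 MIA 2, with 359 cells, shared 245 barcodes with the female P14 saline 3 library (68.2%), and the UMIs of these barcodes correlated between the libraries, across barcodes, at r = 0.993 on a log scale. E13.5 MIA 1, with 273 cells, shared 132 barcodes (48.4%) with P14 MIA 1. Results were computed on all cells, and again with each shared barcode kept only in the library where it held most UMIs.

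In embryonic microglia, ribosomal protein mRNA made up between 18.2% and 22.1% of all UMIs, and in P14 microglia between 9.79% and 10.5%. The share was 19.4%, 19.9% and 21.3% in the 3 E13.5 saline libraries and 19.6%, 18.2% and 20.9% in the 3 E13.5 MIA libraries. At E15.5 it was 20.6%, 21.2% and 20.8% after saline and 19.6%, 22.1% and 21.1% after MIA. In the 4 P14 saline libraries it was 9.82%, 9.93%, 10.5% and 10.2%, and in the P14 MIA libraries 9.99% and 9.79%. The P14 libraries lay below every embryonic library, with a mean share of 10.0% ± 0.254 (SD, n = 6) against 20.4% ± 1.07 (SD, n = 12), and the treated libraries lay among or next to the saline libraries of their age. With shared barcodes removed, the share was 14.8% in the remaining 107 cells of E13.5 MIA 2 and 21.2% in the remaining 138 of E13.5 MIA 1. With shared barcodes kept once, the P14 shares were between 9.62% and 9.93%. In the nuclei the share was lower again, between 3.73% and 5.41%.

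The barcodes that P14 libraries shared with embryonic libraries carried the embryonic share. In the female P14 saline 3 library, the barcodes it had in common with E13.5 MIA 2 gave 19.9% of their UMIs to ribosomal proteins and its other cells 9.69%. In the male library of the same replicate the values were 20.0% and 9.63%. In P14 MIA 1 the barcodes in common with E13.5 MIA 1 gave 20.4% and the others 9.89%. Barcodes whose UMIs were more numerous in another library held 8.31% and 6.28% of the UMIs of the female and male P14 saline 3 libraries, 10.1% of E15.5 MIA 3 and at most 2.24% of any other microglia library.

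**Figure D1:**
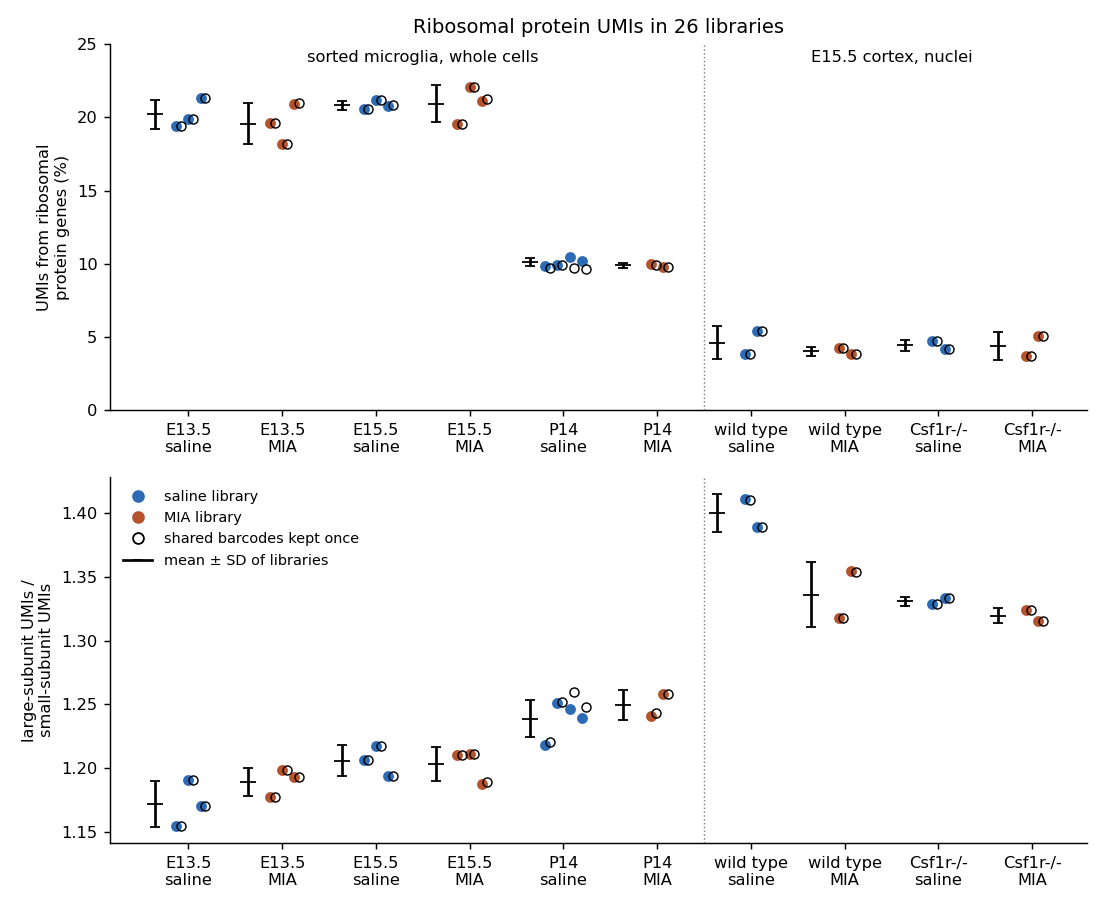
Share of UMIs from the 86 cytosolic ribosomal protein genes (percent, vertical axis from 0) in each of the 26 libraries, by group, with 1 point per library, open circles for shared barcodes kept once, mean and SD bars, and below it the ratio of large to small subunit UMIs (axis not from 0). The 12 embryonic microglia libraries lie between 18.2% and 22.1%, the 6 P14 libraries between 9.79% and 10.5% and the 8 nuclei libraries between 3.73% and 5.41%.

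Counted per cell, a mean of between 1911 and 5023 ribosomal protein UMIs was found in embryonic microglia, between 369 and 672 in P14 microglia and between 68.2 and 137 in nuclei. The depth per cell moved with age as well: the median cell held between 8033 and 25015 UMIs in the embryonic libraries and between 3653 and 6779 at P14. Fewer molecules per cell and a lower capture of RNA cannot be told apart from these counts. The share of mitochondrially encoded UMIs was between 2.12% and 5.04% in the embryo and between 1.33% and 1.54% at P14, and that of the nuclear RNA Malat1 between 0.616% and 1.78% and between 2.69% and 3.71%. Without both kinds of UMIs the ribosomal protein share was between 19.1% and 23.2% in the embryonic libraries and between 10.2% and 10.9% at P14, with means of 21.4% and 10.5%, so the ages stayed as far apart.

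Large subunit genes together gave more UMIs than small subunit genes in every library. The sets hold 52 and 34 genes, or 46 and 31 proteins proper, so the ratio of these sums is not a ratio of levels per gene. In every library it was below the ratio of the gene numbers. The ratio of large to small subunit UMIs was between 1.15 and 1.20 at E13.5, between 1.19 and 1.22 at E15.5, between 1.22 and 1.26 at P14 and between 1.32 and 1.41 in nuclei. The ranges of E13.5 and P14 did not overlap, and that of E15.5 lay between them and overlapped that of E13.5. By group, the mean was 1.17 ± 0.0179 (SD, n = 3) at E13.5 saline, 1.21 ± 0.0120 (SD, n = 3) at E15.5 saline and 1.24 ± 0.0146 (SD, n = 4) at P14 saline. In nuclei the 2 wild-type saline libraries, at 1.41 and 1.39, lay above the 6 libraries of the other groups, which were between 1.32 and 1.35.

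Levels of single genes were mostly high. Among the proteins proper they ran from 380 CPM (Rpl13a) to 7445 CPM (Rps29) in E13.5 saline microglia. In E13.5 saline microglia 74 of the 86 genes were above 1000 CPM, the median gene was at 2288 CPM, and the 5 highest genes held 12.9% of the ribosomal protein UMIs. Rps29, Rps27a, Rpl41 and Rps12 were among the highest, and Rps29, a small zinc-binding protein of the small subunit, had a mean of 7445 CPM. At P14, 54 genes were above 1000 CPM and the median gene was at 1173 CPM. Rpl10l, a testis paralog of Rpl10, was at 0 in all libraries, and Rpl3l, the paralog of Rpl3 of heart and skeletal muscle, had at most 0.533 CPM in any microglia library and was at 0 in nuclei.

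Between E15.5 and P14, ribosomal protein mRNAs fell almost without exception in saline microglia. By edgeR's TMM-scaled fold changes, the median gene went to 0.405 of its earlier level. In CPM the median gene was at 2459 in E15.5 saline and at 1173 in P14 saline. By edgeR's quasi-likelihood test across 14488 genes, with Benjamini-Hochberg adjustment at 0.05, 81 of 85 genes tested were lower at P14 and none higher. Of all genes, 24.5% were called lower. The median log2 fold change was -1.30, against 0.030 over all genes tested. Large subunit genes were called in 50 of 51 cases with a median of -1.29, and small subunit genes in 31 of 34 with a median of -1.37. Among the 77 proteins proper, 76 were called lower, the range of log2 fold changes was -1.87 to -0.63, and the tenth and the ninetieth percentile were -1.67 and -1.02. In 76 of 85 genes every P14 library was below every E15.5 saline library, which held for 17.8% of all genes.

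Rps2, a protein of the mRNA entry channel, had the largest fold change of the proteins proper. It stood at 4294, 2724 and 2847 CPM in the E15.5 saline libraries and at 931, 864, 1288 and 1174 CPM in those of P14, a log2 fold change of -1.87 ± 0.19 (SE; edgeR adjusted p = 8.8e-07). All P14 libraries lay below all E15.5 libraries, although the E15.5 libraries differed among themselves. Rps19, the small subunit protein most often mutated in Diamond-Blackfan anaemia, was at 2157, 2454 and 2809 CPM and then at 693, 817, 931 and 952 CPM, with a log2 fold change of -1.78 ± 0.14 (SE). Rpl32, of the large subunit, was at 4458, 4295 and 4542 CPM and then at 1393, 1424, 1686 and 1627 CPM, or -1.77 ± 0.11 (SE). Neither gene had overlapping groups, and Rpl32 varied least of these genes among the E15.5 libraries.

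Genes with known roles outside the bulk of the ribosome followed the rest. The stalk proteins, which recruit the elongation factors, changed by -1.28 (Rplp0), -1.11 (Rplp1) and -1.21 (Rplp2) on the log2 scale. Rpsa, which also serves as a laminin receptor, changed by -1.74, and Rps6 by -1.43. Rps6 stood at 1132, 1173 and 1436 CPM at E15.5 and at 444, 538, 600 and 603 CPM at P14. The p53-linked Rpl5 and Rpl11 changed by -1.22 and -1.38, Rpl3 of the peptidyl transferase centre by -1.21 and Rpl10, which is among the last to join the large subunit, by -1.25. Rps3 changed by -1.14, Rpl22 by -1.35, Rpl38 by -1.09, Rpl39 by -1.12, Rpl41, the smallest of the proteins, by -1.42 and Rps4x by -1.01. All of these passed the test. For Rpl10 the P14 saline mean was 1202 CPM ± 422 (SD), and P14 saline 1 lay far below the other P14 saline libraries.

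The smallest changes among the proteins proper were those of Rps27, Rps29 and Rps21, all of the small subunit. Rps29 stood at 3543, 6543 and 4592 CPM at E15.5 and at 4103, 4577, 3052 and 3170 CPM at P14, so the groups overlapped, and the log2 fold change of -0.63 ± 0.26 (SE) missed the threshold (edgeR adjusted p = 0.0524). Rps27, at 1129, 2218 and 1368 CPM and then at 1198, 1583, 1003 and 1031 CPM, also had overlapping groups, and its change of -0.63 ± 0.24 (SE) passed (edgeR adjusted p = 0.0399) and was lost without E15.5 saline 2, at -0.28, and with libraries scaled to total UMIs, at -0.38. Rps29 passed with shared barcodes kept once, at -0.67. Rps21 was between 2363 and 3437 CPM and then between 1705 and 2033 CPM, with no overlap and a change of -0.80. Among the E15.5 libraries, saline 2 was the highest in all 3 genes.

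**Figure D2:**
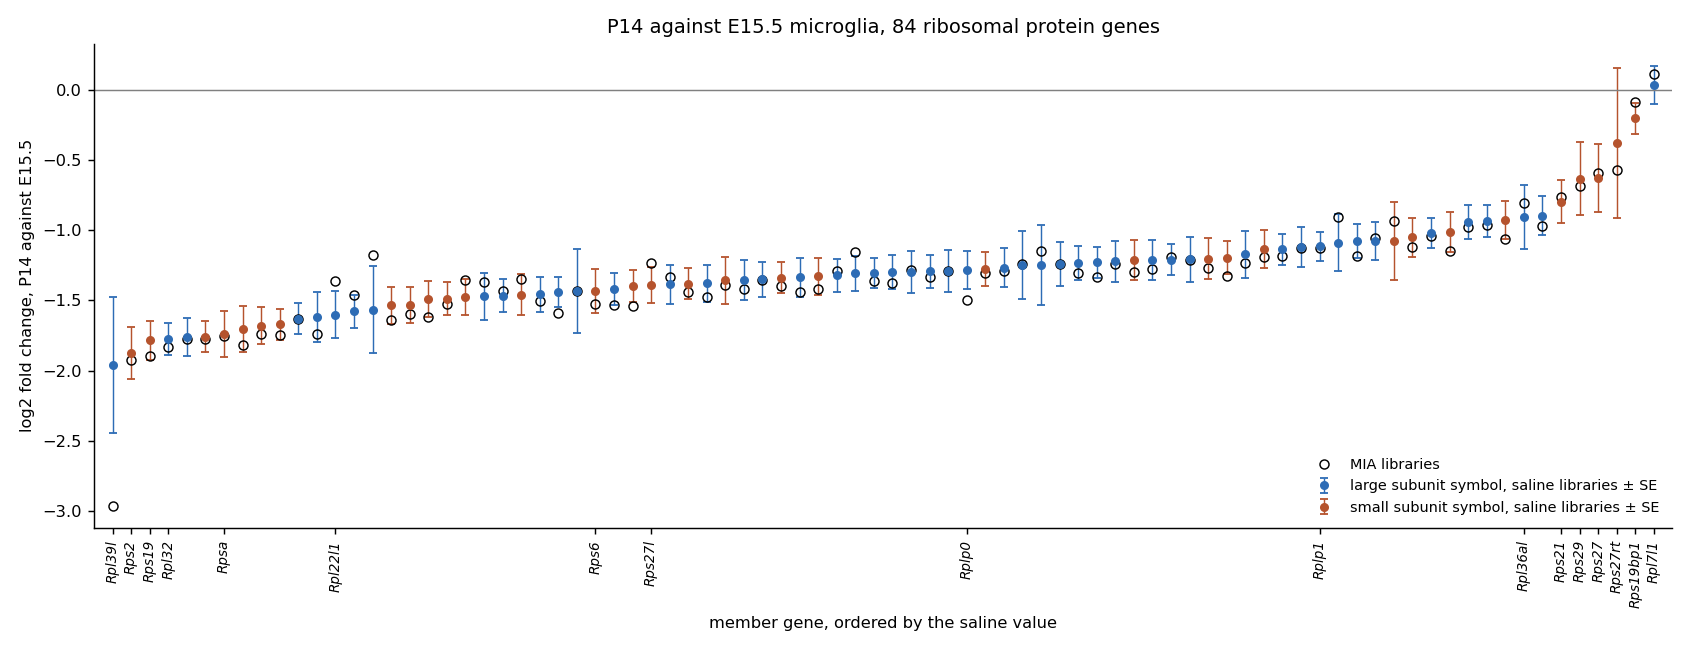
Log2 fold change (vertical axis) of 84 ribosomal protein genes, P14 against E15.5, ordered by the saline value with some symbols given, as filled points with SE bars for saline libraries, colored by subunit, and open points for MIA libraries. Rpl3l, with few UMIs, is left out, and Rpl7l1 at the right end is the only filled point above 0.

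The paralogs did not move as 1 group. Rps27l, a p53 target and close paralog of Rps27, changed by -1.39 and Rpl22l1, the paralog of Rpl22, by -1.60, so both fell. Rpl36al changed by -0.90. Rpl39l, a testis paralog of Rpl39, was at 4.45 to 6.46 CPM at E15.5 and at 0.781 to 2.40 CPM at P14, a log2 fold change of -1.96 (edgeR adjusted p = 0.0033). Rpl3l had 22 UMIs in the 3 E15.5 saline libraries together and 0 in the 4 P14 saline libraries, which is at least 4.97-fold lower against a floor of 3 UMIs over the group, and 20 of the 22 came from 1 library, without which its call was lost. Rpl7l1, a ribosome assembly factor, and Rps19bp1, known as a regulator of Sirt1, are not ribosomal proteins, gave 0.036 and -0.20 and did not pass. Rps27rt, an intronless copy of Rps27 on chromosome 9, gave -0.38 (edgeR adjusted p = 0.584), and its reads may not be separable from those of Rps27.

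The fall was also found in MIA microglia, where 79 of 85 genes were called lower at P14 and none higher, against 18.6% of all genes called lower. Their median log2 fold change was -1.33, with 49 of 51 large subunit genes called at a median of -1.29 and 30 of 34 small subunit genes at -1.37. Every P14 MIA library lay below every E15.5 MIA library for 79 of 85 genes, against 19.5% of all genes. The 79 genes called after MIA were all among the 81 called after saline, which is 97.5% of the saline list and 100% of the MIA list. Rps2, Rps19 and Rpl32 were again among the genes that changed most. The test of a difference between the 2 changes with age called 0 of 85 ribosomal protein genes and 0% of all genes by edgeR, with 132 genes and 0 ribosomal protein genes at an unadjusted p under 0.05, and DESeq2 called 0 genes.

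The size of the fall depended on scaling and cell choice, while the median stayed below 0 under all alternatives tried. With libraries scaled to total UMIs alone, the median was -1.06 with 80 genes called, while the median of all genes moved to 0.27. With shared barcodes kept once it was -1.38 with 82 called, and without the marker gate -1.20 with 80 called. Markers of other cells also moved with age. Neuronal markers, 8 of 8 found, summed to between 33.1 and 295 CPM at E15.5 and between 8.05 and 19.3 CPM at P14, border macrophage markers, 8 of 8 found, to between 286 and 683 CPM and between 163 and 291 CPM, and red blood cell markers, 7 of 7 found, to between 71.5 and 4587 CPM and between 3.90 and 1801 CPM. Of these lists only Hba-x and Hbb-bh1 were at 0, in P14 MIA. Blood myeloid markers were between 7.15 and 12.4 CPM and between 9.80 and 14.9 CPM, with Retnlg, a defining one, at 0 at both ages. Their part in the fall was not tested.

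Between E13.5 and E15.5 few ribosomal protein genes changed in saline microglia, and the median log2 fold change was 0.069, against 0.046 over all genes tested. Of 85 genes, 3 rose and 6 fell by edgeR's test with Benjamini-Hochberg adjustment, where 12.2% of all genes were called higher and 10% lower. Every E15.5 library lay above every E13.5 library in 24 of 85 genes, against 18.7% of all genes, and below in 12, against 18.6%. The medians were 0.048 for the large and 0.069 for the small subunit. Of the 6 that fell, 4 (Rps27l, Rpl22l1, Rps19bp1 and Rpl7l1) were paralogs or genes that only share the symbol. Rpl31, of the large subunit, also fell, at -0.38 ± 0.12 (SE; edgeR adjusted p = 0.0367), and is named here after its value was seen. Neuronal markers summed to between 27.7 and 41.0 CPM in E13.5 saline and between 84.6 and 226 CPM in E15.5 saline libraries. Border macrophage and red blood cell markers overlapped between these ages. The part of other cells in the changes was not tested.

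Rps27l fell most clearly, from 531, 520 and 550 CPM at E13.5 to 335, 240 and 235 CPM at E15.5, by 0.96 ± 0.14 (SE) on the log2 scale (edgeR adjusted p = 0.000304). The groups did not overlap, and the P14 saline libraries lay lower still, between 116 and 125 CPM. Rpl22l1 fell from 704, 680 and 801 CPM to 566, 347 and 342 CPM, by 0.77 ± 0.18 (SE; edgeR adjusted p = 0.00679). E15.5 saline 1 stood apart from the other 2 libraries in both genes and nearer to E13.5. Rps19bp1 fell from a mean of 68.0 to 44.4 CPM, by 0.59 ± 0.12 (SE; edgeR adjusted p = 0.0024). These 3 calls were kept under all alternatives.

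Among the genes that rose were Rps9 and Rps4x, both proteins proper. Rps9, which helps to keep decoding accurate, went from 2085, 2232 and 2539 CPM to 2855, 3048 and 3874 CPM, a log2 fold change of 0.53 ± 0.15 (SE; edgeR adjusted p = 0.0187). Rps4x, encoded on the X chromosome, went from 1924, 2249 and 2218 CPM to 3108, 2724 and 2960 CPM, or 0.48 ± 0.16 (SE; edgeR adjusted p = 0.0366). In both genes every E15.5 library was above every E13.5 library, but the calls of Rps9 and Rps4x were each lost with at least 1 library left out, as was that of Rpl7l1, with a change of -0.46.

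**Figure D3:**
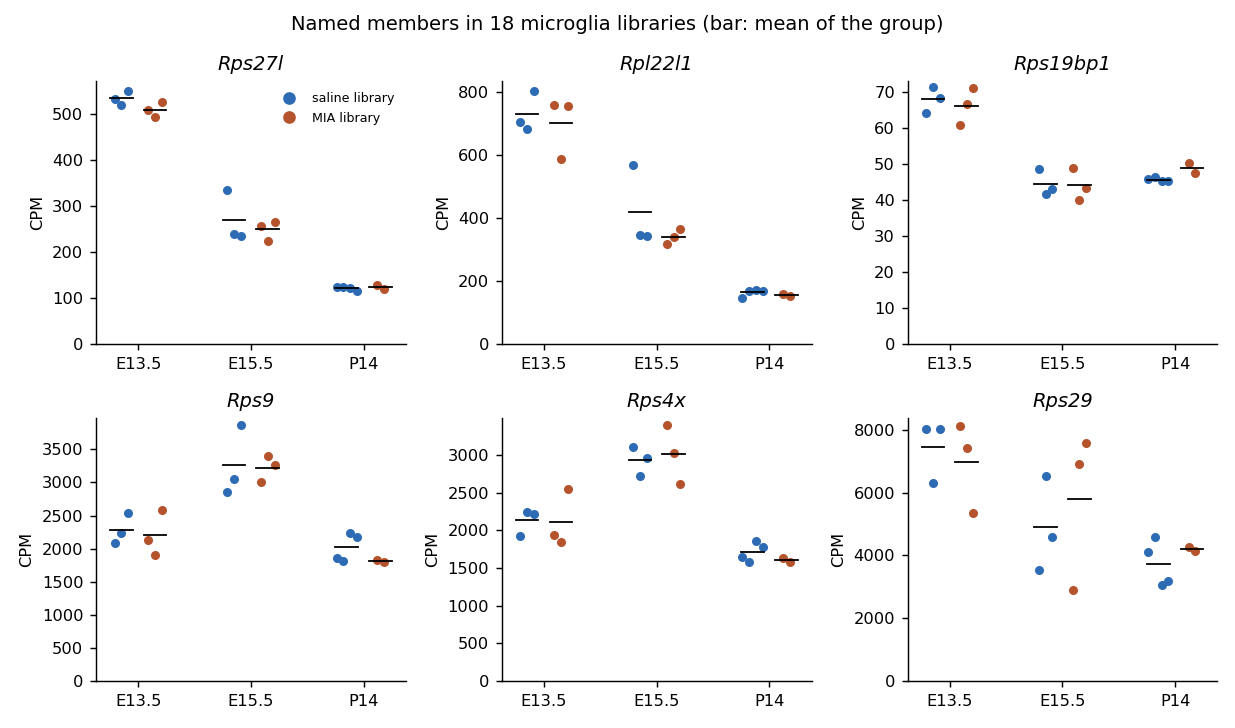
CPM of 6 named genes in the 18 microglia libraries by age and treatment (vertical axes from 0, with a scale for each gene), with 1 point per library and a bar at the group mean. Rps27l and Rpl22l1 step down between E13.5 and E15.5 and again by P14, Rps9 and Rps4x are highest at E15.5, and the E15.5 and P14 points of Rps29 overlap.

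In MIA microglia 14 genes were called between these ages, 9 higher and 5 lower, with 13.1% of all genes called higher and 13.3% lower. The count rested on single libraries: it was 29 without E13.5 MIA 3, 23 without E15.5 MIA 3, 9 without E15.5 MIA 2, and 8 without E13.5 MIA 1 or without E13.5 MIA 2, the libraries with 273 and 359 cells that shared many barcodes with P14 libraries. With shared barcodes removed 4 were called. Genes called in the same direction in both treatments numbered 8, among them Rps9 and Rps4x, which were higher, and Rps27l, Rpl22l1, Rps19bp1 and Rpl7l1, which were lower. They made up 88.9% of the saline list and 57.1% of the MIA list. In MIA microglia Rpl22l1 went from a mean of 700 to 341 CPM, and Rps27l gave -0.99 ± 0.14 (SE) on the log2 scale. Rpl30 and Rpl6, at 0.46 and 0.44, passed after MIA and not after saline, and the difference between the treatments, tested as an interaction, was called for 0 genes.

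How closely the genes repeated within a group differed widely. Over the 18 microglia libraries, the SD of log2 CPM within groups, on 12 residual degrees of freedom, was between 0.0825 for Rpl35a and 0.796 for Rps27rt, with a median of 0.144 over the 83 genes above a mean of 20 CPM. It was over 0.25 in 14 genes, led by Rps27rt and Rpl13a, and among them Rpl35 (0.488), Rpl27 (0.426), Rps28 (0.424), Rps29 (0.417), Rpl10 (0.395) and Rps27 (0.378). Many ribosomal protein genes have processed copies elsewhere in the genome, and the part of reads that match more than 1 place in this spread was not tested.

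MIA was not found to change ribosomal protein genes in microglia. At E13.5, 0 of 84 genes were called by edgeR, with 0% of all 12517 genes called, 126 genes and 1 ribosomal protein gene at an unadjusted p under 0.05, and 2 genes, none of them ribosomal, called by DESeq2. The median log2 fold change was -0.065, with 13 genes higher and 71 lower in direction. The 1 gene with an unadjusted p under 0.05 was Rpl13a, at 335, 415 and 390 CPM after saline and 630, 943 and 360 CPM after MIA (log2 fold change 0.73 ± 0.26, SE; edgeR unadjusted p = 0.0208, adjusted p = 1.00). The highest values were those of E13.5 MIA 1 and 2, and the groups overlapped. Without E13.5 MIA 2 the median over the genes turned to 0.040. Red blood cell markers summed to 6218 CPM in that library and to 26.3 and 327 CPM in E13.5 MIA 1 and 3. After saline they summed to between 56.9 and 1156 CPM, and their part was not tested.

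At E15.5, 0 of 84 genes were called, with 0% of 13319 genes called, 38 genes and 0 ribosomal protein genes at an unadjusted p under 0.05 and 0 genes by DESeq2. The median was -0.0072, with 39 genes higher and 45 lower in direction. Rpl22l1 had the lowest p, at 566, 347 and 342 CPM after saline and 319, 339 and 365 CPM after MIA. Here the difference came from 1 saline library, and without it the log2 fold change went from -0.29 to 0.019.

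At P14, again 0 of 84 genes were called, with 0% of 13255 genes called, 447 genes and 0 ribosomal protein genes at an unadjusted p under 0.05 and 1 gene, not a ribosomal one, by DESeq2. The median was -0.048, with 31 genes higher and 53 lower in direction, and 0.0077 with shared barcodes kept once. Rpl36 was at 993, 988, 929 and 893 CPM after saline and 1124 and 1021 CPM after MIA, or 0.19 ± 0.09 (SE; edgeR adjusted p = 0.95). Every MIA library lay above every saline library, which held for 5.27% of all genes, and the difference missed the threshold. The difference of the MIA response between E13.5 and E15.5 was called by edgeR for 0 of 85 genes and 0% of all genes, with 76 genes and 0 ribosomal protein genes at an unadjusted p under 0.05 and 0 genes by DESeq2. In counts simulated at the depths of these libraries, 72.1% of genes changed 2-fold were found at E13.5, 29.6% at E15.5 and 73.1% at P14, and smaller changes were not simulated.

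In nuclei the genes were lower and ordered differently. In wild-type saline nuclei 3 of 86 genes were above 1000 CPM and the median gene was at 553 CPM. Rpl6, Rpl13, Rpl23 and Rpsa were among the highest. Among the 83 genes above 20 CPM in both kinds of sample, 82 had a higher mean in E15.5 saline microglia than in wild-type saline nuclei, and the median ratio was 4.22. The ratio ran from 0.888 for Rps19bp1 to 13.3 for Rps12, which was at 4501 CPM in microglia and 338 CPM in nuclei. Rpl12, Rpl32, Rplp1 and Rpl35a followed Rps12, and Rpl13a, Rpl27, Rpl7l1 and Rpl36al were next to Rps19bp1 at the low end. Whole cells hold cytoplasmic mRNA that nuclei lack, and most of the nuclei are of other cell types. The 31 microglia-like nuclei, found in 4 libraries, gave between 2.70% and 4.01% of their UMIs to ribosomal proteins, and 7 of them lay in the library labelled Csf1r-/- saline 2. Compartment and preparation, from frozen tissue for nuclei alone, cannot be told apart, and the part of cell type was not tested. No test was made of this contrast.

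**Figure D4:**
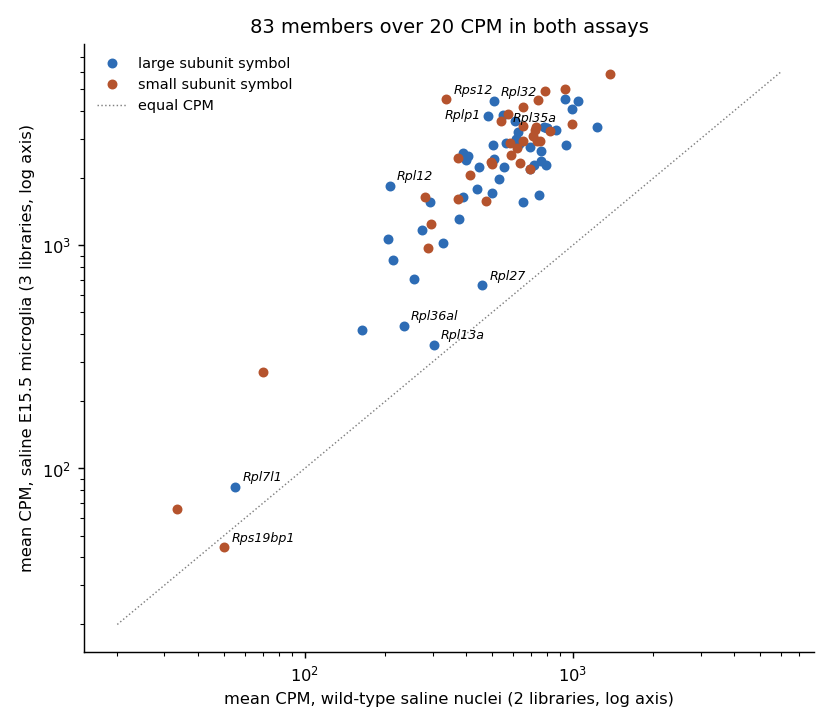
Mean CPM of each ribosomal protein gene in wild-type saline nuclei of E15.5 cortex (horizontal log axis) and in E15.5 saline microglia (vertical log axis), with a line of equal levels. Of 83 genes above 20 CPM in both, 82 lie above the line, Rps12 farthest from it, and Rps19bp1 lies below.

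Rpl13a stood apart between the replicate numbers of the nuclei. The number coincides with the software version, the gene list and the barcode filter of the deposited files, so that these cannot be told apart. Rpl13a was at 111, 96.0, 116 and 98.5 CPM in the libraries numbered 1 and at 496, 354, 361 and 456 CPM in those numbered 2, with a median ratio of 4.07 over the 4 groups. The ranges are far apart, and no other ribosomal protein gene came near this ratio. Rpl27 and Rps28 followed at 1.63 and 1.60. In all, 6 of 83 genes were higher in the libraries numbered 2 in all 4 groups, against 8.35% of 7584 genes above a mean of 20 CPM, and 1, Rps27rt, was lower, against 31.9%, so genes that kept 1 direction were no more frequent among ribosomal protein genes than among all genes. The median ratio was 1.12.

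No comparison of nuclei called a ribosomal protein gene. For MIA against saline in wild-type nuclei 0 of 83 genes were called by edgeR, with 0% of 14386 genes called, 804 genes and 5 ribosomal protein genes at an unadjusted p under 0.05 and 5 genes, none of them ribosomal, by DESeq2. The median log2 fold change was -0.31, with 79 genes lower and 4 higher in direction. Rpl4, which lines the exit tunnel, had the lowest p, at 234 and 279 CPM after saline and 204 and 179 CPM after MIA (log2 fold change -0.51 ± 0.19, SE; edgeR unadjusted p = 0.0273, adjusted p = 0.878). Rpl3 was at 403 and 477 CPM and then at 338 and 301 CPM, and Rps6 at 277 and 316 CPM and then at 241 and 198 CPM. In these 3 genes both MIA libraries were below both saline libraries, as they were in 17 of 83 ribosomal protein genes and in 13.8% of all genes. Red blood cell markers summed to 541 and 374 CPM after saline and to 327 and 261 CPM after MIA, and microglial markers to 36.0 and 23.4 and to 19.4 and 4.30 CPM. A cluster led by Ebf1, Isl1 and Six3 held 924 and 15 nuclei of the saline and 10 and 16 of the MIA libraries. Their part was not tested.

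The libraries numbered 1 and those numbered 2 differed in direction. Within libraries numbered 1, 61 of 83 genes were higher after MIA in wild-type nuclei, at a median of 0.12, and within libraries numbered 2, 82 of 83 were lower, at a median of -0.67. In Csf1r-/- nuclei the reverse was seen: 83 of 83 were lower within number 1, at -0.35, and 83 of 83 higher within number 2, at 0.30, with a pooled median of 0.0050. The value within number 2 rests on the library labelled Csf1r-/- saline 2, and that of wild-type nuclei on the library labelled wild-type MIA 2, both of which went against their labels, and neither can be given without them. Without both, the pooled median of Csf1r-/- nuclei was -0.057. For both numbers pooled, edgeR called 0 of 83 genes and 0% of all genes, with 41 genes and 0 ribosomal protein genes at an unadjusted p under 0.05. The library shares were in the same order. Wild-type saline 2 and Csf1r-/- MIA 2 had the highest shares of the 8, 5.41% and 5.08%, and Csf1r-/- MIA 1 and wild-type MIA 2 were low, at 3.73% and 3.82%. Without wild-type saline 2 the wild-type median was 0.090, and without both libraries that go against their labels it was -0.23. The genes of a library lay high or low together, and the shares of the libraries of wild-type saline and of Csf1r-/- MIA differed within the group by more than any group means did. Mitochondrially encoded UMIs were 0.0352% in Csf1r-/- saline 1, 0.0311% in wild-type saline 2 and 0.0287% in Csf1r-/- MIA 2, the libraries with the highest shares. They were 0.0140% in wild-type saline 1, 0.0147% in wild-type MIA 2 and 0.0239% in Csf1r-/- MIA 1, the libraries with the lowest shares. Their part was not tested.

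The comparisons of genotypes also rested on single libraries, and all of them use at least 1 of the libraries whose Csf1r UMIs did not match the label. Without both of these, the medians were -0.067 for Csf1r-/- against wild type after saline, 0.12 after MIA and 0.18 for the difference of the MIA response, with 0 ribosomal protein genes called by edgeR in each. Wild-type MIA and Csf1r-/- saline then hold 1 library each, which is assumed to vary like the libraries of the other groups, so the missing calls say little. Csf1r-/- against wild-type nuclei after saline had 0 of 83 genes called by edgeR, with 833 genes and 1 ribosomal protein gene, Rpl3, at an unadjusted p under 0.05. The median was -0.12 with 61 genes lower in direction, and 0.26 without wild-type saline 2. After MIA 0 of 83 were called, with 59 genes and 0 ribosomal protein genes at an unadjusted p under 0.05, a median of 0.19 and 79 genes higher in direction, and without Csf1r-/- MIA 2 the median was -0.14. For the difference of the MIA response between genotypes 0 of 83 were called, with 264 genes and 1 ribosomal protein gene at an unadjusted p under 0.05 and a median of 0.32, which was -0.082 without wild-type saline 2 and -0.019 without Csf1r-/- MIA 2. Its lowest p was that of Rpl3, at 0.72 ± 0.31 (SE; edgeR unadjusted p = 0.0469, adjusted p = 1.00). In these and in the Csf1r-/- comparison DESeq2 called 0 ribosomal protein genes and between 0 and 5 genes in all, 0% of all genes were called by edgeR, and the wild-type simulation found 24.1% of genes changed 2-fold.

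Among the nuclei, classes rebuilt from markers, with the ribosomal protein genes left out of the clustering, differed in their share. A cluster was named only where it showed at least 3 markers of a class, and 16617 nuclei, with a mean share of 4.65%, were left unnamed. The mean over the 8 libraries was 4.75% ± 0.740 (SD) in apical progenitor-like nuclei, 4.81% ± 0.678 (SD) in intermediate progenitor-like nuclei, 3.84% ± 0.519 (SD) in excitatory neuron-like nuclei and 3.19% ± 0.529 (SD) in interneuron-like nuclei. The excitatory neuron-like class holds 2 clusters. Both progenitor classes were above it in 8 of 8 libraries, and above the interneuron-like nuclei in 8 of 8. The progenitor clusters differed. Those led by genes of cell division such as Top2a had 3.99% (apical) and 4.22% (intermediate). The other apical cluster had 5.10%, and the other intermediate clusters 5.37% and 4.61%. The excitatory neuron-like clusters had 4.08% and 3.71%. The interneuron-like class includes a cluster at 4.06% whose leading genes, Ebf1, Isl1 and Six3, leave its name in doubt. The intermediate progenitor-like nuclei exceeded the excitatory neuron-like nuclei by between 0.665 and 1.47 percentage points. Apical and intermediate progenitor-like nuclei did not keep an order, with the apical share higher in 4 of 8 libraries. This order covers named clusters alone: 5 unnamed clusters, each with 1 or 2 excitatory neuron markers and not led by mitochondrially encoded genes, had shares of 5.16%, 4.00%, 4.42%, 4.09% and 3.12%, so the highest of them reached the level of the progenitor classes. The Cajal-Retzius-like nuclei, 140 in all, had 2.90% and the 31 microglia-like nuclei 3.11%.

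The ratio of large to small subunit UMIs was 1.39 in excitatory neuron-like nuclei, above that of the apical progenitor-like (1.33), intermediate progenitor-like (1.31) and interneuron-like nuclei (1.35) in 8 of 8 libraries each. The median nucleus of the excitatory class also held more UMIs, between 1800 and 3602 over the libraries, against between 1162 and 2340 in the apical class, and its part was not tested. Most excitatory neuron-like nuclei of the libraries numbered 1 and 2 fell into different clusters, 3 and 1. One cluster counted as interneuron-like was led by Ebf1, Isl1 and Six3, also showed Bcl11b and Foxp2, and may not be of interneurons. Its share was 4.06%, against 3.06% in the interneuron-like cluster with Lhx6 and Sst. It held 924 of its 1061 nuclei in wild-type saline 1, where interneuron-like nuclei made up 29.2% of the library. A cluster of 739 nuclei led by mitochondrially encoded genes and Tpt1 reached 9.62% and was left unnamed. In the 4 libraries that list all barcodes, droplets of 1 to 100 UMIs gave between 10.3% and 14.2% of their UMIs to ribosomal proteins, above every class, and the part of this free RNA in the class shares was not tested.

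Other genes of translation were read beside the ribosomal proteins in saline microglia. Other mRNAs of the TOP class, which encode elongation and initiation factors and ribosome-associated proteins, fell between E15.5 and P14 in 15 of 16 cases, at a median log2 fold change of -1.03, where 24.5% of all genes were called lower and 24.1% higher. Among them Eef1a1, the carrier of aminoacyl-tRNA, fell from a mean of 5483 to 3161 CPM. Rack1, bound to the small subunit, fell from 1669 to 668 CPM. On edgeR's TMM-scaled log2 scale they fell by 1.04 ± 0.10 (SE) and 1.56 ± 0.16 (SE). Genes of ribosome biogenesis were called lower in 16 and higher in 3 of 25 cases, at a median of -0.47, with the nucleolar Npm1 at -1.50, Ncl at -0.68 and Fbl at -0.88, and Rrp1b, Sbds and Polr1a higher. Proteins of the mitochondrial ribosome fell in 55 of 78 cases, at a median of -0.61. Of 12 regulators 3 were called lower, near the share of 24.5% over all genes. They were Eif4ebp1, Myc and Mycn, at -1.70, -1.63 and -3.15, while Mtor and Larp1 did not pass.

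Between E13.5 and E15.5 these lists had lower medians than the ribosomal proteins. Ribosome biogenesis genes fell in 15 of 25 cases at a median of -0.61, with Nop56 at -1.04, Nop58 at -1.16 and Ncl at -0.98, and mitochondrial ribosomal protein genes in 25 of 78 cases at -0.39, against 10% of all genes called lower, while the ribosomal protein median was 0.069. Other TOP mRNAs rose in 3 cases, among them Eef1a1 at 0.38, and fell in 1, at a median of 0.0064, against 12.2% of all genes called higher. Myc, Larp1 and Mtor fell, at -0.89, -0.59 and -0.40. In MIA microglia biogenesis genes fell in 16 of 25 cases and mitochondrial ribosomal protein genes in 35 of 78, against 13.3% of all genes called lower. None of these lists had a gene called for MIA against saline at any age, where edgeR called 0% of all genes.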

How the data were processed

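Whole cells sorted as microglia (18 libraries) and sorted cortical nuclei (8 libraries) were profiled with the Chromium 3′ v3.1 droplet method. The deposited values are UMI counts for each barcode, from reads that the authors aligned to mm10. Cell Ranger 3.1.0 is given in their processing notes and in the headers of 22 libraries, and 6.0.1 in the headers of 4 nuclei libraries. The 2 gene lists were joined by identifier (30406 genes in common). The members and gene lists were chosen with earlier results of these data known.

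Filters removed nuclei under 500 UMIs or 200 genes, and sorted cells under 500 genes or with over 20% of UMIs from mitochondrial genes. The barcodes with the highest Scrublet scores were removed as doublets, 0.8% per 1000 cells. Sorted cells had to show at least 3 microglial markers and more microglial than neuronal UMIs. Counts were summed per library, and libraries were the replicates. Which dam each library came from was not given in the sources used here. Wild-type and Csf1r-/- nuclei came from littermates, so nuclei libraries share dams across genotypes, and p-values measure only the spread between libraries. Tests used edgeR 4.0.16 (quasi-likelihood, TMM, filterByExpr) with limma 3.58.1 in R 4.3.3, fitted over all genes with Benjamini-Hochberg adjustment at 0.05, and DESeq2 1.42.0 as an alternative. Nuclei were clustered with scanpy 1.11.5 and leidenalg 0.10.2 on 2000 variable genes without the members, with 30 components, 20 neighbours and resolution 1, in Python 3.11.15. The edgeR step was tested on simulated counts with 200 genes changed 2-fold.

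Same-numbered E15.5 saline and MIA libraries deviated together across genes (r = 0.58, 0.24 and 0.57) and were taken as paired in the block alternative. The labels give no sequencing batch. Genes were named by role, as paralogs, by the largest change among called genes (up to 5 in each direction) or the 3 lowest p-values where none was called, and by level; a few genes that these rules name are not reported here. Handling of shared barcodes, and the age contrasts in MIA libraries, were added after seeing the data. Counting error alone bears on floors.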

Additional observations from a re-analysis of the deposited data

Results flagged for a closer look

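Of 51 values tested in the 4 P14 saline libraries, 4 had a sample whose distance to its nearest neighbour was a large part of the whole range of the group. In each of them P14 saline 1 was the lowest. Rpl10 was at 572 CPM in that library and between 1363 and 1454 CPM in the others, a gap of 0.898 of the range. Rpl22l1 was at 146 CPM against 169 to 171 CPM (0.916 of the range), Rplp1 at 1902 CPM against 2124 to 2164 CPM (0.850) and Rplp2 at 1076 CPM against 1165 to 1177 CPM (0.878). Chance alone flags about 1 in 20 such groups.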

How the results depend on the processing

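Of 225 counts of ribosomal protein genes called under an alternative, 211 stayed within 1.5 times the reported count, most of them in comparisons where 0 were called. Of 235 medians over the genes, 39 moved by more than the spread between libraries, most of them in nuclei, and of 1283 values of named genes 1215 kept their direction and their side of the threshold, 53 lost a call, 5 gained one and 10 changed sign. Between E13.5 and E15.5, the saline count of 9 was 5 with no filter on low counts, 4 with shared barcodes removed and between 4 and 8 with 1 library left out, and the MIA count of 14 was 9, 4 and between 8 and 29, and 22 by DESeq2. In the saline libraries the call of Rps4x was lost under 9 of 15 alternatives, of Rpl7l1 under 7 and of Rps9 under 4. The mean P14 share of 10.0% was 9.58% as a median over cells, 10.5% without mitochondrially encoded and Malat1 UMIs and 9.78% with shared barcodes removed, and the mean share in nuclei of 4.38% was 5.15% without mitochondrially encoded and Malat1 UMIs. The cause of these shifts was not tested.

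Values that changed sign, none of them called, were as follows. With 1 library left out, MIA against saline at E15.5 ran from -0.43 to 0.019 for Rpl22l1 and from -0.29 to 0.015 for Rps15 on the log2 scale, and P14 against E15.5 from -0.055 to 0.23 for Rpl7l1. In nuclei, MIA against saline in Csf1r-/- ran from -0.046 to 0.36 for Rpl3 and from -0.14 to 0.33 for Rps6, and Csf1r-/- against wild type after MIA from -0.12 to 0.97 for Rpl35 and from -0.060 to 0.94 for Rps29. Rps19bp1 turned to 0.038 between E15.5 and P14 with libraries scaled to total UMIs.

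With the replicate number as a block, 0 ribosomal protein genes were called in each of the 8 comparisons run, 3 of MIA in microglia and 5 of nuclei, so no call changed. It called 5 genes of all kinds at E13.5 and 0 at E15.5 and P14. Same-numbered libraries correlated in their deviations at 0.30, 0.024 and 0.41 at E13.5 and at 0.25 and 0.13 at P14, which did not pair them. At E15.5 and in nuclei, where 29.6% and 24.1% of simulated 2-fold changes were found, a missing call says little.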
